A study of Rattus norvegicus with 8 samples.

Results

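The 9 genes described here encode receptors for mediators that are released in inflamed tissue: Cysltr2, Ptafr, Ptger3, Ptger4, Ptgir, S1pr3, Lpar3, Il1r1 and Osmr. They were picked by symbol from the deposited gene list, and all 9 of the 9 names were found among its 30560 genes. Nuclei of nodose ganglia, which hold the cell bodies of vagal sensory neurons, came from experimentally naive Long Evans rats, 18 male and 18 female, aged 8 weeks. The ganglia of 1 side from 6 rats made 1 pool, so that 3 left and 3 right pools represent each sex, 12 pools in all. The side taken first was counterbalanced, the tissue was flash-frozen, and nuclei were barcoded with Evercode version 2 chemistry and sequenced in 8 sublibraries. Left and right pools of a sex draw on the same rats, and which left pool shares rats with which right pool is not stated.

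These receptors let sensory endings read chemical signals of injury and immunity. Prostaglandins, leukotrienes, platelet-activating factor and lysophospholipids are lipids made on demand from membranes, and they act on G protein-coupled receptors. Interleukin 1 and oncostatin M are cytokines whose receptors pair with a partner chain and signal through MyD88 or Janus kinases. Vagal sensory neurons supply airways, heart and gut, where such mediators are known to sensitise or excite afferents.

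The promoter sequences of 4 of the genes are shown because Cysltr2 and Ptafr had the most similar levels over neuron types, and Il1r1 and Osmr were both found in vascular nuclei and in 1 small neuron type. Each line gives the 250 bases before the annotated start, 5′ to 3′ on the strand of the gene, from RefSeq on build GRCr8, with matches to the motifs searched in capitals. Cysltr2 is at chr15:54638315-54638564 on the minus strand, Ptafr at chr5:150057154-150057403 on the plus strand, Il1r1 at chr9:50034133-50034382 on the plus strand and Osmr at chr2:57688562-57688811 on the minus strand.
Cysltr2: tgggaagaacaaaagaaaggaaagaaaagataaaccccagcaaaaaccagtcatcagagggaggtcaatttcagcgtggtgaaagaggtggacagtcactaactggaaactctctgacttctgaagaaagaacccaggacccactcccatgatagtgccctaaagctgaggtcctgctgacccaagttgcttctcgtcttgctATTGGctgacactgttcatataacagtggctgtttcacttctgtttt
Ptafr: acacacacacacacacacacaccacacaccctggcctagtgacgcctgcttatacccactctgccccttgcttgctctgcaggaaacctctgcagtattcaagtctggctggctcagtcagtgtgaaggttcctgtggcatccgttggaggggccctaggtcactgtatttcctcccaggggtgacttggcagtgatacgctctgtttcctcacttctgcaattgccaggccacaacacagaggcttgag
Il1r1: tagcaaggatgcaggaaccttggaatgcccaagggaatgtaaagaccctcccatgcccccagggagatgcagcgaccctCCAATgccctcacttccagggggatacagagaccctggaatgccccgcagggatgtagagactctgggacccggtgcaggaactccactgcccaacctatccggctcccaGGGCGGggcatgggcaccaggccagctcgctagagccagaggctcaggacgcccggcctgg
Osmr: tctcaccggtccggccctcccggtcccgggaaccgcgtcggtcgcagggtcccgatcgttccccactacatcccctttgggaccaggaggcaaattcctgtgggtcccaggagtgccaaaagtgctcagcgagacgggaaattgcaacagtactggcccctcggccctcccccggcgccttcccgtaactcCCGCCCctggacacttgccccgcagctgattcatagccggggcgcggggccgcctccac
Both strands were searched for 6 motifs, none of which is contained in another. They were the TATA box with the letters TATAAA, the CCAAT box, the GC box with the letters GGGCGG, the AP-1 site with the letters TGACTCA, the E-box with the letters CACGTG and the cyclic AMP response element with the letters TGACGTCA. The Cysltr2 window held 1 CCAAT match, on the opposite strand, 47 bases before the start, and the Ptafr window held none of the 6. The Il1r1 window held CCAAT at 171 and GGGCGG at 61 bases before the start, and the Osmr window held GGGCGG on the opposite strand at 59 bases. Of 33469 RefSeq windows of this length, 34.0% held CCAAT and 30.5% held GGGCGG, so these matches are common. The TATA box letters were in 12.9% of windows, the AP-1 site in 4.05%, the E-box in 5.59% and the cyclic AMP response element in 1.59%. GC content was 45.6% for Cysltr2, 55.2% for Ptafr, 63.6% for Il1r1 and 67.6% for Osmr, against a median of 51.2% over all windows.

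The table held 36741 nuclei, of which 36739 were kept, with 1738 to 4849 nuclei and 7139364 to 19456287 transcript counts (unique molecular identifiers, UMIs) per pool. Levels are given as CPM, the UMIs of a gene for every 1000000 UMIs of the summed nuclei. Neurons made up 25803 nuclei in 25 types, of which 6 carried at least 3 jugular markers such as Prdm12 and are called jugular-like. Among the other nuclei, 1784 were satellite glia-like, 1919 myelinating Schwann-like, 814 endothelial-like, 301 mural-like and 123 fibroblast-like. Skeletal muscle-like nuclei numbered 369 and sympathetic or chromaffin-like nuclei 19. A further 5607 nuclei (15.3%) stayed unnamed, among them mixed clusters and some with satellite glia genes among their leading genes. Satellite glia-like levels leave these unnamed nuclei out unless stated. No cluster carried the macrophage markers. Type numbers are cluster numbers, and clusters were made without the 9 genes. Y-linked genes went against the sex label in the pools ML1 (male-labelled, left, number 1; 2.88 CPM) and FL1 (female-labelled, left, number 1; 88.7 CPM). The other male-labelled pools were at 84.4 to 91.3 CPM and the other female-labelled pools at 2.73 to 3.95 CPM. Pools are therefore called male-labelled and female-labelled. Results by sex and side include ML1 and FL1 unless stated, and only some are also given without both.

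**Figure D1:**
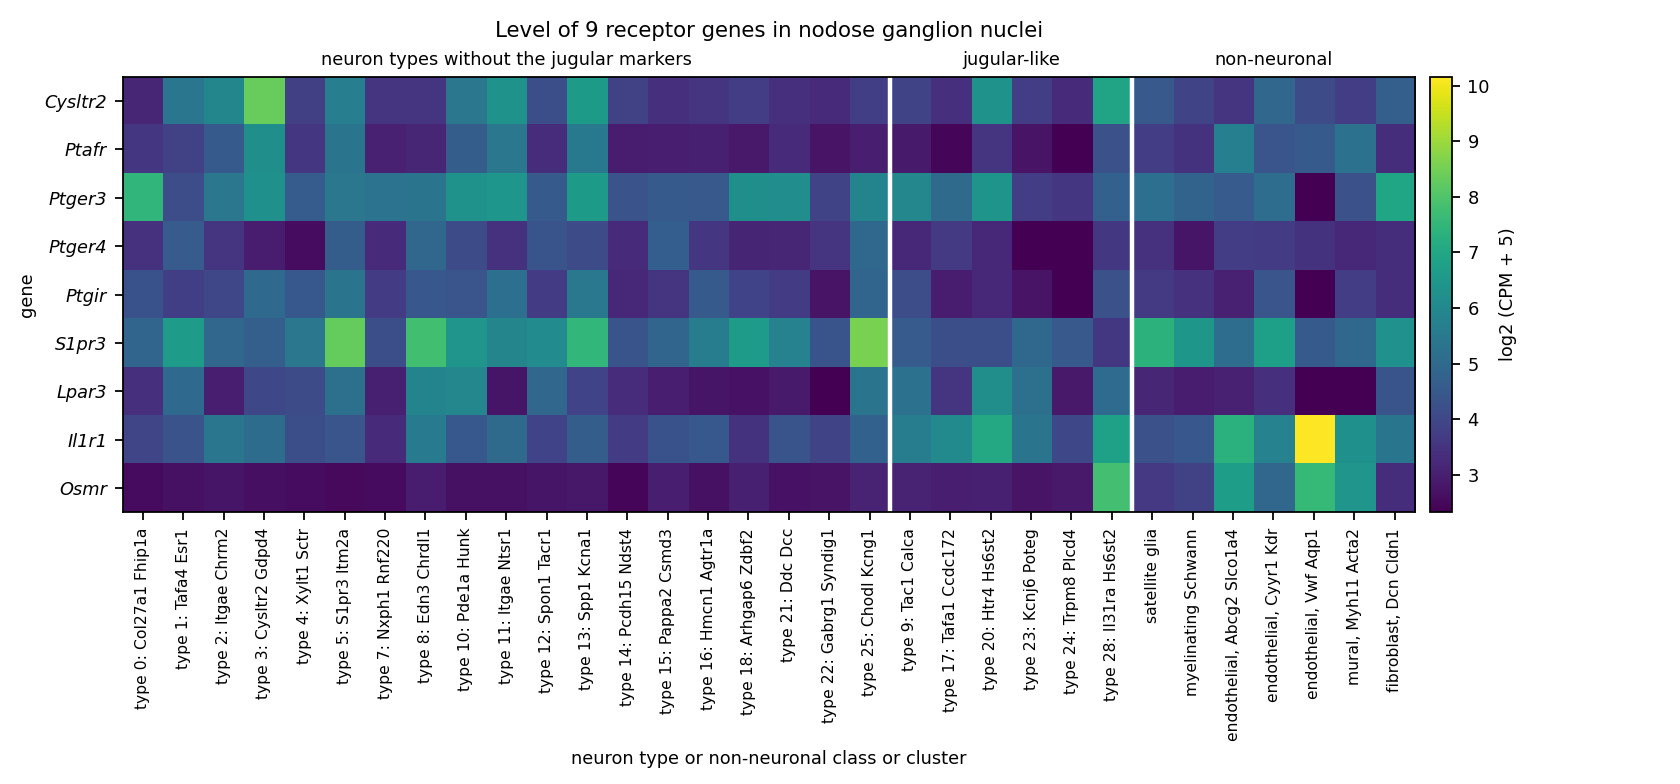
Level of each receptor gene, as log2 of CPM plus 5, in 25 neuron types (numbered, with leading genes) and in non-neuronal classes and clusters, all pools summed. Cysltr2 and Ptafr were highest in type 3, Ptger3 in type 0, Osmr in type 28 among neurons, and Il1r1 in a cluster of 83 endothelial-like nuclei.

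Over all neurons, UMIs of S1pr3 (8249), Cysltr2 (5734) and Ptger3 (5609) were the most numerous of the 9 genes, and those of Osmr (184) the fewest; these counts are not corrected for gene length. Neuronal level ranged over pools from 45.8 to 79.5 CPM for Cysltr2, from 47.5 to 66.2 CPM for Ptger3 and from 11.7 to 27.001 CPM for Ptgir. Jugular-like and other neurons had non-overlapping pool ranges for Cysltr2, Ptafr, S1pr3 and Il1r1. The share of all genes with such ranges is not given here, so this is no result about these receptors as a set. Cysltr2 was at 8.98, 16.2 and 20.6 CPM in jugular-like neurons (lowest, median and highest pool) and at 49.7, 57.1 and 81.6 CPM in the others. Ptafr was at 0 to 9.02 CPM against 17.3 to 27.99 CPM, and S1pr3 at 4.22 to 34.7 CPM against 72.8 to 106 CPM, also lower in jugular-like neurons, while Il1r1 was higher there. Ptger3, Ptger4, Ptgir, Lpar3 and Osmr had overlapping ranges. In satellite glia-like nuclei 7 of the 9 genes were at 22.7 to 62.9% of their neuronal level, and S1pr3 and Osmr were above their neuronal level.

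Among prostanoid receptors, Ptger3, the EP3 receptor for prostaglandin E2, was highest in type 0 (leading genes Col27a1, Fhip1a and Kirrel3; 3597 nuclei). Its level there over the 12 pools was 130 CPM at the lowest, 175 at the median and 204 at the highest. A UMI was found in 32.5% of these nuclei (exact binomial 95% interval 31.0 to 34.1%), and in 21.8% after thinning to 1500 UMIs. Type 0 had the highest level of the 15 types with at least 20 nuclei in every pool in 12 of 12 pools, and it held 29.5% of the neuronal Ptger3 UMIs. The next types were type 13 (leading genes Spp1, Kcna1 and Nefh), at 34.4, 90.4 and 133 CPM for the lowest, median and highest pool, and type 11 (Itgae, Ntsr1 and Gpr65), at 69.2, 82.9 and 101 CPM. The range of type 13 overlapped that of type 0, and types 13 and 11 overlapped each other. Ptger3 was lowest in type 24 (leading genes Trpm8, Plcd4 and Cdh8), with 3 UMIs in 183 nuclei. Outside neurons, 21 of 123 fibroblast-like nuclei held Ptger3, at 119 CPM (exact Poisson 95% interval 75.5 to 179), against 56.5 CPM in all neurons.

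Ptger4, the EP4 receptor, was spread thinly. Its highest level was 26.4 CPM in type 25 (leading genes Chodl, Kcng1 and Chrdl1), from 36 UMIs in 173 nuclei, followed by 25.02 CPM in type 8 (Edn3 and Chrdl1 among its leading genes), 20.2 in type 15 and 19.97 in type 5. Over pools, type 8 ran from 6.25 over 23.4 to 52.5 CPM, and neighbours in this order overlapped. No UMI was seen in 197 nuclei of type 23 or 183 of type 24, which allows a share of up to 1.52% and 1.64%. Ptgir, the prostacyclin receptor, was at 39.0 CPM in type 13, 35.5 in type 5 (S1pr3, Itm2a and Sez6l), 31.2 in type 11 and 26.8 in type 3. Type 13 ran from 11.5 over 37.0 to 53.1 CPM and type 5 from 14.3 over 34.6 to 64.4 CPM, so that the order of these neighbours did not stand beyond the spread over pools. Type 24 held 0 Ptgir UMIs.

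Of the other prostanoid genes, Ptger1 was at 4.60 CPM in neurons, and Ptgfr, the prostaglandin F receptor, reached 48.0 CPM in type 12 (leading genes Spon1, Tacr1 and Tmem233). Ptgs2, the inducible cyclooxygenase, was at 0.161 CPM in neurons. Ptgs1, the constitutive cyclooxygenase, was at 85.7 CPM (14 UMIs), and Slco2a1, a prostaglandin transporter, at 330 CPM, in the endothelial-like cluster of 83 nuclei led by Vwf and Aqp1. Slco2a1 is itself among the 10 leading genes of that cluster.

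Cysltr2, the CysLT2 receptor for cysteinyl leukotrienes, was concentrated in type 3 (leading genes Cysltr2, Gdpd4 and Shisa6; 1767 nuclei, 6.85% of neurons). The level over pools was 261 CPM at the lowest, 325 at the median and 358 at the highest. Clustered at resolution 0.5, most of type 3 was merged into a cluster of 4747 nuclei. The highest level in a type was then 173 CPM for Cysltr2 and 46.0 CPM for Ptafr, both in that cluster. Type 3 held 55.6% of the neuronal Cysltr2 UMIs and had the highest level in 12 of 12 pools. No other type with nuclei in every pool reached this range, since type 13 ran from 40.1 over 71.0 to 172 CPM and type 11 from 41.2 over 72.9 to 104 CPM. A UMI was found in 63.3% of type 3 nuclei (61.0 to 65.5%; median depth 4560 UMIs), or 34.4% after thinning. In type 0, the lowest type, the share was 1.06% (median depth 2341 UMIs), or 0.636% after thinning. Type 28, a jugular-like type of 56 nuclei, was second by level at 113 CPM, from 16 UMIs.

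Ptafr, the receptor for platelet-activating factor, followed a similar order. Type 3 ran from 43.3 over 66.4 to 98.7 CPM and was the highest type in 10 of 12 pools. It was followed by type 13 (17.2, 34.3 and 59.6 CPM), type 11 (27.8, 38.4 and 56.8 CPM) and type 5 (24.4, 35.6 and 53.6 CPM), whose ranges overlapped with that of type 3 and with each other. A Ptafr UMI was found in 26.5% of type 3 nuclei, 8.55% after thinning, and in 0 of 183 nuclei of type 24, which allows up to 1.64%. The Pearson correlation of log2 levels of Cysltr2 and Ptafr over the 25 types was 0.87, the highest of the member pairs, and is a description over types that share pools and libraries. Of 9419 genes, Ptafr was the most like Cysltr2, before Gdpd4 (0.86) and Serpinb6a (0.80), and Dsp was the most like Ptafr (0.88). Within type 3, 379 nuclei held UMIs of both genes, against 296 from the product of their shares. Cysltr2 with Trpv1, the capsaicin receptor, gave 445 against 350.5 in the same nuclei, and Cysltr2 with Ptger3 gave 410 against 321. Depth differs between nuclei, and its part in these excesses was not tested. Ptafr was also present in endothelial-like nuclei, at 31.2 CPM against 19.6 in neurons, and above neurons in 10 of 12 pools. Most of these UMIs came from the cluster led by Abcg2 and Slco1a4 (45 UMIs, 47.5 CPM), whose endothelial-like name depended on the clustering resolution. The cluster led by Cyyr1 and Kdr was at 15.9 CPM (14 UMIs) and that led by Vwf and Aqp1 at 18.4 CPM (3 UMIs), not above neurons. Mural-like nuclei were at 32.6 CPM. Of the genes that make leukotrienes, Alox5, the 5-lipoxygenase, was at 1.18 CPM in neurons, its partner Alox5ap at 0.806 and Ltc4s, the leukotriene C4 synthase, at 0.0302, while Lta4h, the leukotriene A4 hydrolase, was at 23.5 CPM. Lpcat2, an enzyme of platelet-activating factor synthesis, was at 181 CPM in myelinating Schwann-like nuclei, 102 in satellite glia-like nuclei and 9.42 in neurons.

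**Figure D2:**
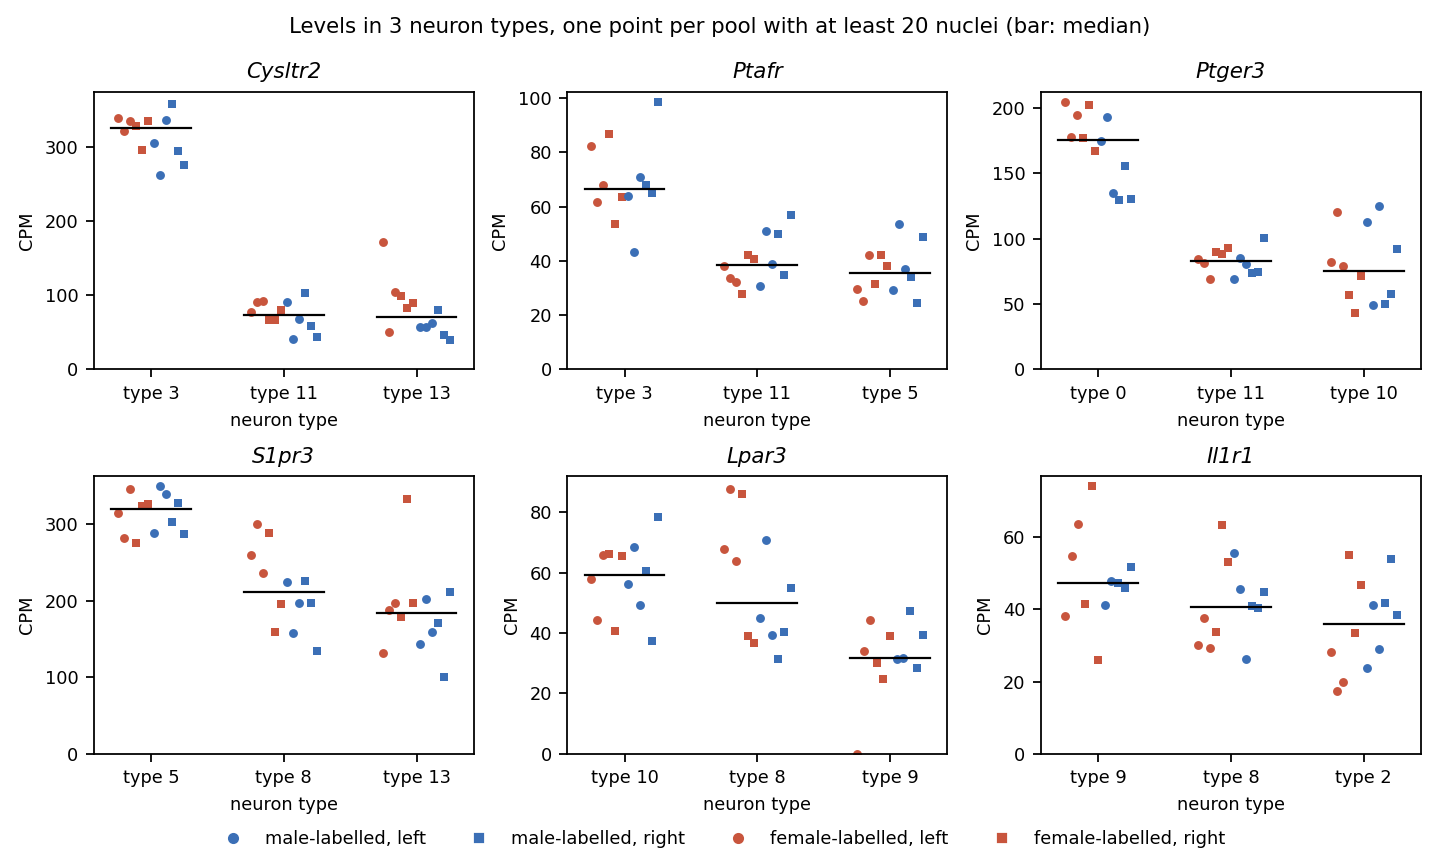
CPM of 6 receptor genes in 3 neuron types each, 1 point per pool with at least 20 nuclei of the type, coloured by labelled sex and shaped by side, with the median as a bar. Cysltr2 in type 3 ran from 261 to 358 CPM, above every pool of types 11 and 13, while Ptafr, Lpar3 and Il1r1 ranges overlapped between types.

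S1pr3, a receptor for sphingosine 1-phosphate, was highest in type 25 at 381 CPM (173 nuclei) and in type 5 at 313 CPM (1553 nuclei). In the 3 pools with at least 20 nuclei of type 25, the level was 320, 491 and 574 CPM. Type 25 also had the highest satellite glia marker level of the 25 types (mean log2 of CPM plus 5 of 5.81, against 3.69 in type 5), and the part of glial RNA in its S1pr3 level was not tested. Type 5 ran from 276 over 320 to 351 CPM over pools, and held 39.0% of the neuronal UMIs. A UMI was found in 73.7% of type 5 nuclei, 34.4% after thinning. Type 8 followed, from 135 over 211 to 300 CPM, and type 13 from 99.99 over 184 to 333 CPM, both overlapping type 5. The lowest levels were 7.07 CPM in type 28 (1 UMI) and 13.3 CPM in type 17. Over types, S1pr3 was most like Itm2a (0.88) and Ifit2 (0.87). Type 5 was also the type with the highest level of Trpa1, the irritant channel, at 1018 CPM, and 1089 of its 1553 nuclei held both, against 1039 from the product of the shares.

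S1pr3 was higher in satellite glia-like nuclei than in neurons in 12 of 12 pools, at 117, 151 and 211 CPM for the lowest, median and highest pool, against 68.1, 83.8 and 99.9 in neurons. These pool ranges did not overlap. The satellite glia-like level was 192% of the neuronal level. Neuronal RNA was present in these nuclei too, since the summed level of the general neuron markers was 3523 to 4501 CPM over pools, against 6155 to 7644 CPM in neurons, and its part in the S1pr3 level was not tested. A cluster of 351 nuclei with satellite glia markers but led by Nxph1 and Th was left unnamed, a choice made after its levels had been seen; with it the level was 150 CPM (117, 139 and 206 over pools) and again above neurons in 12 of 12 pools. Myelinating Schwann-like nuclei were at 83.9 CPM, above neurons in 6 of 12 pools.

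Lpar3, a receptor for lysophosphatidic acid, was highest in jugular-like type 20 (leading genes Htr4, Hs6st2 and Gna14) at 69.0 CPM, from 66 UMIs. In its 5 pools with at least 20 nuclei it was at 36.5 CPM at the lowest, 78.0 at the median and 97.2 at the highest. Type 10 (leading genes Pde1a, Hunk and Fhip1a) ran from 37.4 over 59.2 to 78.2 CPM and type 8 from 31.3 over 49.9 to 87.6 CPM. These 3 ranges overlapped. No UMI was seen in 326 nuclei of type 22, which allows up to 0.920% of nuclei, or in 301 mural-like nuclei. Over types, Lpar3 was most like Trpv1 (0.78) and Scn11a (0.78), a sodium channel of nociceptors. Lpar1, a relative in the same receptor family, was at 644 CPM in satellite glia-like nuclei and 65.5 in neurons, and Enpp2, which makes lysophosphatidic acid, reached 705 CPM in type 12.

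Il1r1, the signalling receptor of interleukin 1, was higher in jugular-like neurons than in other neurons in every pool. Jugular-like neurons were at 47.1, 59.6 and 73.8 CPM for the lowest, median and highest pool, and the other neurons at 16.7, 19.6 and 22.4 CPM, with no overlap. Type 20 led at 128 CPM, with 73.1, 125 and 163 CPM at the lowest, median and highest of its 5 pools. Types 28 (106 CPM, from 15 UMIs), 17 (62.6 CPM) and 9 (44.9 CPM, leading genes Tac1, Calca and Gfra3) followed, also jugular-like, before type 8 (42.5 CPM) and type 2 (37.3 CPM). The other 2 jugular-like types were lower, with type 23 at 35.6 CPM and type 24 at 11.2 CPM from 5 UMIs, the latter below the 19.3 CPM of the other neurons. Magi3 had the pattern over types most like it (0.85). S1pr3 went the other way in levels, at 17.1 CPM in jugular-like and 90.4 CPM in other neurons.

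Il1r1 was higher in endothelial-like nuclei than in neurons in 12 of 12 pools, at 90.03, 176 and 470 CPM against 18.6, 22.5 and 29.2. The level was unequal among endothelial-like clusters. The cluster of 83 nuclei led by Vwf, Aqp1, Eln and Slco2a1 held 186 UMIs, or 1138 CPM (exact Poisson 95% interval 980 to 1314), and a UMI was found in 67 of its 83 nuclei (80.7%, 70.6 to 88.6%), with UMIs in all 12 pools. The cluster led by Abcg2 and Slco1a4 (403 nuclei) was at 154 CPM and the cluster led by Cyyr1 and Kdr (328 nuclei) at 51.1 CPM. Mural-like nuclei were at 70.9 CPM. Clustered at resolution 1 instead, an alternative added after seeing the data, 58 of the 83 nuclei formed a cluster at 1443.5 CPM. At that resolution the 403 nuclei of the Abcg2 and Slco1a4 cluster joined 267 mural-like nuclei in a cluster that was named mural-like, at 120 CPM of Il1r1 and 94.8 CPM of Osmr, so the endothelial-like name of those 403 nuclei depended on the resolution. Il1rap, the partner chain, was at 66.8 CPM in endothelial-like nuclei, 82.5 in satellite glia-like nuclei and 18.8 in neurons, and Irak3, an inhibitor of the pathway, at 171 CPM in the cluster of 83 nuclei.

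Osmr, which pairs with gp130 for oncostatin M and with Il31ra for interleukin 31, was sparse in neurons (184 UMIs in 25803 nuclei). Among the neuron types, type 28 stood at 219 CPM, from 31 UMIs, and the next type was at 3.67 CPM. A UMI was found in 22 of 56 type 28 nuclei (39.3%, 26.5 to 53.2%), and 16.8% of the neuronal Osmr UMIs came from them. Il31ra leads this type by its fold, so its presence in 56 of 56 nuclei follows from the clustering. Type 28 UMIs of Osmr came from 7 of 12 pools, with 10 in ML1 and 7 in FR3, which also gave 18 and 13 of the 56 nuclei. Nppb had 0 UMIs in these nuclei, and Jak1, the kinase of these receptors, was at 1167 CPM, its highest type.

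Osmr was also higher in endothelial-like nuclei than in neurons in 12 of 12 pools, at 33.8, 64.5 and 133 CPM against 0.808, 1.83 and 3.46, and mural-like nuclei were at 80.8 CPM. Mural markers summed to 729 to 1826 CPM over pools in endothelial-like nuclei, and the part of mural RNA in their Osmr level was not tested. The cluster of 83 nuclei was at 184 CPM, the Abcg2 cluster at 100.4 (95 UMIs) and the Cyyr1 cluster at 25.003 CPM. The endothelial-like name of the Abcg2 cluster depended on the resolution. Il1r1 and Osmr were found together in 18 nuclei of the first cluster, against 19.4 from the product of the shares, and in 16 against 15.1 in the Abcg2 cluster. Il6st, which encodes gp130, was at 1860 CPM in the cluster of 83 nuclei, 482 in endothelial-like nuclei and 102 in neurons. Osm, the ligand, had 0.0202 CPM in neurons.

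**Figure D3:**
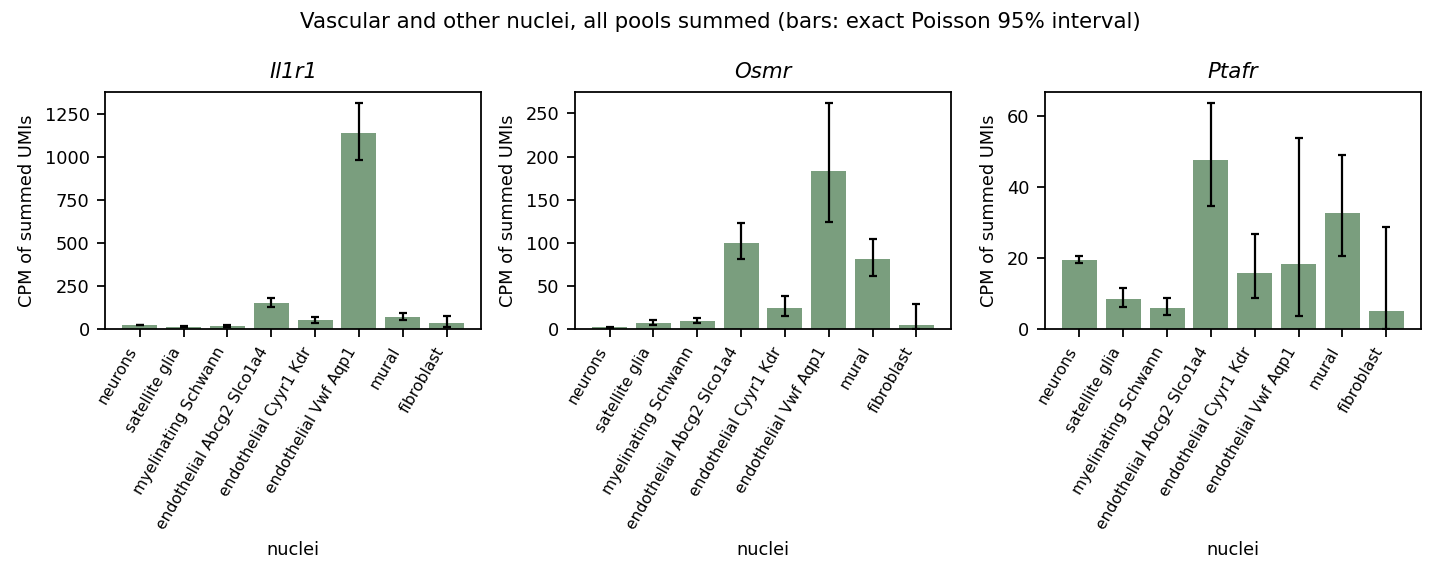
CPM of Il1r1, Osmr and Ptafr in neurons, glia, 3 endothelial-like clusters, mural-like and fibroblast-like nuclei, all pools summed, with exact Poisson 95% intervals for counting error. Il1r1 reached 1138 CPM in the cluster led by Vwf and Aqp1, against 23.0 CPM in neurons.

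Right and left ganglia and the labelled sexes were compared on UMIs summed per pool, over all genes, with edgeR's quasi-likelihood test and Benjamini-Hochberg adjustment. None of the 9 members had an adjusted p under 0.05 by side in neurons, where 0.0856% of all genes were called, nor by labelled sex, where 0.0357% were called. The number of genes called by labelled sex was not stable, at 5 with all pools, 0 to 522 when single pools were left out (522 without MR1, number 1 of the male-labelled right pools) and 31 without both mismatched pools. At an unadjusted p under 0.05, 2 of 9 members passed by side, where 6.44% of all genes did, and 2 of 9 by labelled sex, where 19.1% of all genes did. DESeq2 called 0 members in both, where it called 0.76% of the genes it gave an adjusted p by side and 4.34% by labelled sex. It had 2 of 9 members at an unadjusted p under 0.05 in each. In the test of whether the difference between sides depends on labelled sex, edgeR called 0 of 9 members and 0.0% of genes, and DESeq2 also called 0 members. With edgeR, 1 of 9 members had an unadjusted p under 0.05, as had 4.07% of all genes, and with DESeq2 0 of 9. The p-values rest on the spread between these pools. Left and right pools of a sex share rats, but the fits by labelled sex treated all pools as independent. The p-values by labelled sex can therefore be too low.

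Cysltr2 had the lowest adjusted p by side. Left pools were at 46.2, 65.0 and 79.96 CPM for the lowest, median and highest, and right pools at 47.2, 50.7 and 57.5 CPM (normalised). The ranges overlapped: all left pools except ML1 and ML2 lay above the highest right pool. The log2 fold change of right over left was -0.33 (SE 0.09, 95% interval -0.52 to -0.13), with an adjusted p of 0.374 by edgeR and Benjamini-Hochberg. Without ML1 and FL1 it was -0.29 (adjusted p 0.983 by edgeR). Type 3, which holds most Cysltr2, made up 6.88, 7.68 and 10.2% of neurons in left pools (lowest, median, highest) and 4.25, 6.10 and 7.48% in right pools. Within type 3, Cysltr2 was at 270, 331 and 350 CPM on the left and 287, 321 and 365 CPM on the right. Every pool was also given the same makeup of the 15 types with at least 20 nuclei in every pool. The difference in log2 of CPM plus 5 was then -0.07, a measure unlike the fit over all 25 types. In summed neurons, fewer neurons of a type and less RNA per neuron cannot be told apart, and the part of the makeup was not tested.

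**Figure D4:**
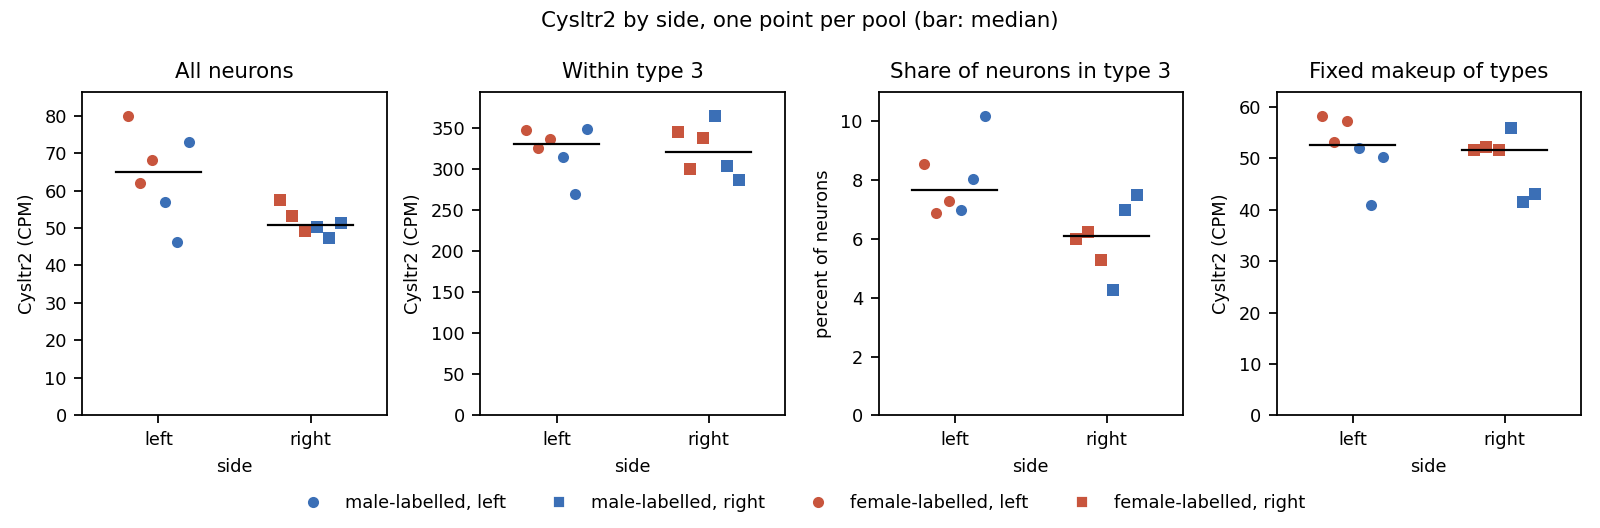
Cysltr2 by side, 1 point per pool with the median as a bar: CPM in all neurons, CPM within type 3, the percent of neurons in type 3, and CPM with the makeup of types held fixed. The left and right medians were 65.0 and 50.7 CPM in all neurons, and 52.6 and 51.6 CPM with the makeup of 15 types held fixed.

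Ptger3 was at 54.8, 60.9 and 67.7 CPM in left and 46.9, 51.4 and 62.3 CPM in right pools, a log2 fold change of -0.20 (SE 0.07, adjusted p 0.651 by edgeR and Benjamini-Hochberg). The other 7 members lay between -0.18 and 0.15 by side. By labelled sex, Il1r1 was at 20.9, 26.4 and 29.5 CPM in male-labelled and 18.3, 19.98 and 28.6 CPM in female-labelled pools, a log2 fold change of -0.29 for female-labelled over male-labelled (SE 0.11, adjusted p 0.162 by edgeR and Benjamini-Hochberg; 0.336 without ML1 and FL1). The groups overlapped. Ptgir was at 11.8, 15.3 and 18.9 CPM in male-labelled and 15.4, 19.1 and 27.2 CPM in female-labelled pools (0.36, SE 0.14, adjusted p 0.202 by edgeR; 0.24 without ML1 and FL1, adjusted p 0.451). Osmr had the widest interval, -1.05 to 0.01 around -0.52, from few UMIs. Simulated 2-fold changes in 200 of 14014 genes were recovered for 93.5% of the genes in neurons, and smaller changes were not simulated.

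**Figure D5:**
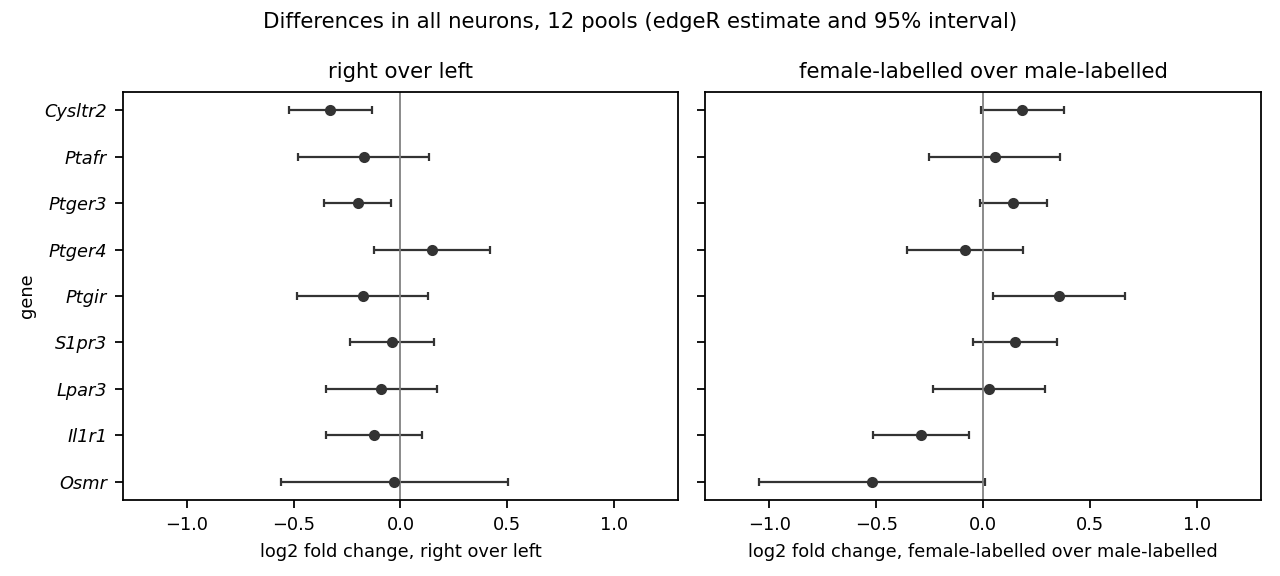
Log2 fold change of each member in all neurons, right over left and female-labelled over male-labelled, with 95% intervals from edgeR over 12 pools. By side, the intervals of Cysltr2 and Ptger3 exclude 0, and by labelled sex those of Ptgir and Il1r1; none passed the adjusted threshold.

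Few members could be tested in other classes, and none was called. Satellite glia-like nuclei allowed 3 (Cysltr2, Ptger3 and S1pr3), with 0.0281% of genes called by side and 0.0842% by labelled sex. Myelinating Schwann-like nuclei allowed S1pr3, with 0.0454% and 0.0302% of genes called. Endothelial-like nuclei allowed Il1r1, Osmr and S1pr3, with 0.0% called for both contrasts. S1pr3 in satellite glia-like nuclei had a log2 fold change of -0.07 by side (95% interval -0.33 to 0.19). Il1r1 in endothelial-like nuclei had 0.15 (-0.31 to 0.60), which was -0.11 without ML1 and FL1. Osmr in the same nuclei had -0.48 (-1.03 to 0.08), which was -0.07 without both. S1pr3 in myelinating Schwann-like nuclei had -0.35 (-0.71 to 0.01), which was -0.17 without both. At an unadjusted p under 0.05, 0 members passed in these 3 classes by edgeR or DESeq2.

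Within 15 neuron types with at least 20 nuclei in every pool, fits added after seeing the data, members could be tested in 13, and 51 member tests per contrast gave 0 calls by edgeR. Over all genes of the 15 types, 0.238% of gene tests were called by side and 0.24% by labelled sex. An unadjusted p under 0.05 was found in 4 of 51 tests for each contrast, or 7.84%, against 5.76% of all gene tests by side and 8.43% by labelled sex. Il1r1 in type 2 (leading genes Itgae, Chrm2 and Gpr65) had the lowest adjusted p. Left pools were at 18.1, 26.99 and 43.5 CPM and right pools at 34.8, 45.9 and 57.8 CPM, with overlap. The log2 fold change was 0.74 (SE 0.20, adjusted p 0.0591 by edgeR and Benjamini-Hochberg), and 0.70 without ML1 and FL1 (adjusted p 0.283). Ptger3 in type 0 differed by 0.29 between labelled sexes (SE 0.09, adjusted p 0.129 by edgeR).

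Of 141 related genes in lists of the same pathways, 133 were in the table and 93 were tested in neurons, in 94 tests because Gnas is carried by 2 identifiers. By side, edgeR called 0 of them, with 9 at an unadjusted p under 0.05, or 9.57% against 6.44% of all genes, and DESeq2 called 0. By labelled sex, edgeR called 0, with 21 at an unadjusted p under 0.05, or 22.3% against 19.1% of all genes, whereas DESeq2 called 9, and 4.34% of all genes with an adjusted p. The medians of the prostanoid receptor list were -0.07 by side and -0.07 by labelled sex on the log2 scale, beside -0.01 and 0.00 over all genes tested. For the interleukin 1 family list they were -0.11 and -0.17, and for the lysophospholipid list 0.03 and -0.09.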

How the data were processed

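Raw UMI counts per nucleus and gene were deposited by the authors without normalisation, and the labels give Evercode version 2 chemistry and NextSeq 2000 sequencing. R 4.3.2, Seurat 4.1.3 and the build mRatBN7.2 are named in the submitters' processing notes; the aligner is not given in the sources used here. Sex, side and number were read from the pool name of each nucleus.

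Nuclei needed 300 detected genes or more and a mitochondrial share of 5% or less. Scrublet called 1 nucleus (0.00272%) and so did not work as a caller; an alternative left out the 1805 nuclei with the 5% highest scores. Of the cell barcodes, 0 occurred more than once. Clustering (scanpy 1.11.5, Leiden, 30 components, 20 neighbours, resolution 1 for neurons and 2 for other nuclei) left the 9 members out. Clusters were named X-like with at least 3 markers at 2-fold or more and a marker among the 10 leading genes. A cluster within 0.35 log2 units of the neurons on the neuron list stayed unnamed; 0.25 was the earlier limit, and the change, made after seeing the data, affected 1 cluster. The 4 neuron clusters with glial or muscle genes (1947 nuclei) were left out of the neurons.

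Shares have exact Clopper-Pearson 95% intervals, and a 0 allows 3 counts; both cover counting error only. The median depth was 2680 UMIs per nucleus. UMIs summed per pool were tested with edgeR 4.0.16 (quasi-likelihood, TMM, filterByExpr, Benjamini-Hochberg over all genes tested) with side and labelled sex as terms, and with DESeq2 1.42.0 as an alternative. Fits were tested on simulated counts. Likeness is the Pearson correlation of log2 CPM plus 5 over types, for genes reaching 20 CPM.

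All 9 members were named in every comparison. The members, related lists and markers were chosen with earlier results of these data known.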

Additional observations from a re-analysis of the deposited data

Results flagged for a closer look

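Of 96 groups of 6 pools read, 4 had 1 pool far from the other 5, about what chance gives (1 in 20 groups). Among female-labelled pools, FL2 was high in neurons for Lpar3 (22.9 CPM) and Il1r1 (28.6 CPM). In endothelial-like nuclei, FL3 was high for Il1r1 (553 CPM, female-labelled pools) and ML1 for Osmr (157 CPM, male-labelled pools). ML1 is 1 of the pools that go against their sex label.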

How the results depend on the processing

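No member was called in any fit run by side, labelled sex or their interaction. Leaving out each pool in turn, run for side and labelled sex only, gave 0 to 0 members called, and the lowest adjusted p by side, for Cysltr2, ranged from 0.0765 (without ML2) to 0.756 (without FR2) by edgeR. The fit with replicate block (number within labelled sex) also called 0 by side, with a lowest adjusted p of 0.238 by edgeR. Same-numbered left and right pools had correlated deviations of -0.01, -0.13, -0.03, -0.02, 0.31 and -0.07 over 10171 genes, so the numbers were not taken to pair the pools. Both number 1 pairs differed in Y-linked genes (ML1 2.88 and MR1 91.3 CPM, FL1 88.7 and FR1 3.95 CPM). As labelled, these pairs could not show pairing, and the replicate block held them as blocks.

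The fixed makeup covered the 15 neuron types with at least 20 nuclei in every pool, whereas the fit covered all 25. Types 9, 17, 20 and 28, among the highest for Il1r1 or Osmr, were therefore left out. With this makeup, the difference by side was 0.0112 for Ptafr (-0.17 in the fit), 0.0801 for Il1r1 (-0.12) and 0.0551 for Osmr (-0.03). The cause of these changes in sign was not tested. For Cysltr2 it was -0.07 (-0.33 in the fit) and for Ptgir -0.03 (-0.18 in the fit). The values with fixed makeup are differences in mean log2 of CPM plus 5, not edgeR fold changes. They also cover fewer types, so the 2 sets are not like measures. At resolution 0.5 the highest level in a type was 173 CPM for Cysltr2 (from 319) and 46.0 CPM for Ptafr (from 69.4). The type with the highest level was kept for 8 of 9 members with the members in the clustering (Ptgir moved to type 5), 7 at resolution 0.5 (Ptger4 to type 8, S1pr3 to type 5), 8 at resolution 2 (Lpar3 to part of type 9) and 9 without the highest doublet scores. At resolution 0.5, Cysltr2 and Ptafr count as kept only because 96.0% of type 3 fell in the leading cluster. That cluster had 4747 nuclei, and its largest part was type 2 (39.6%), so type 3 was not a type of its own there. With pools weighted equally the type with the highest level was kept for 8 of 8, since type 28 had no pool with 20 nuclei and Osmr got no value. Of the values for single genes, 26 levels or shares moved, 17 of them shares after thinning, which removes UMIs and so tends to lower shares. The limit was the spread between pools or the interval of the share. Where no such spread was used, as for Il1r1 and Osmr in the vascular cluster, it was a fixed share of the main level. Depth limits shares of nuclei with a UMI, and Osmr rests on 184 UMIs in neurons.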
